A study of Mus musculus with 6 samples.

Results

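The 10 genes described here encode the core of bile acid synthesis, conjugation, transport and feedback control in the hepatocyte: Cyp7a1, Cyp8b1, Cyp27a1, Cyp7b1, Baat, Slc10a1, Slc51b, Abcb11, Nr1h4 and Nr0b2. They were taken by name from a table of 15454 genes, and all 10 were found in it and in the table of FPKM, fragments scaled for transcript length and sequencing depth. RNA was sequenced from the livers of male C57BL/6 mice aged 8 to 10 weeks, each of which had undergone warm ischemia of 75% of the liver followed by reperfusion. In the I/R group, 3 mice received vehicle solution. In the I/R+Rk2 group, 3 mice received ginsenoside Rk2, a triterpenoid saponin of processed ginseng, in the same vehicle. According to the study, the livers sequenced were from its higher dose of Rk2. Both solutions were injected intraperitoneally, 2 days before surgery and again when reperfusion started. The comparison addresses whether Rk2 was associated with different levels of these transcripts after hepatic I/R. No sham-operated liver was analysed here, so the levels have no uninjured reference.

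Bile acids are made from cholesterol in hepatocytes by a classic route that opens with 7α-hydroxylation by CYP7A1 and by an alternative route that opens with side-chain oxidation by CYP27A1. After conjugation to taurine or glycine they are pumped into the bile canaliculus, reabsorbed in the intestine and taken up again from portal blood. FXR, the bile acid receptor encoded by Nr1h4, raises the corepressor SHP, encoded by Nr0b2, which restrains synthesis.

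The libraries held 16809613 to 35618074 counts. Levels within a gene are given as CPM, counts per 1e+06 of a library size scaled by the TMM method of edgeR, and levels between genes as FPKM. A call is an edgeR adjusted p below 0.05 over the 12411 genes tested, and 43.9% of all genes tested were called. Of those calls 46.1% were higher in I/R+Rk2, against 27.5% when libraries were scaled by size alone, which moved the median log2 fold change of all genes from -0.01 to -0.17. In 3 limma fits on FPKM, 27.2% to 30.5% of calls were higher. Mean levels of the 15 hepatocyte markers examined ran from 254.3 CPM (Cebpa) to 49227 CPM (Alb) in I/R. Summed hepatocyte markers ran from 89545 to 100624 CPM in I/R and from 122994 to 148312 CPM in I/R+Rk2, with 8 of 15 higher, 2 lower and a median log2 fold change of 0.34. A large part of these sums was Alb alone, at 44262 to 52469 CPM in I/R and 68876 to 88052 CPM in I/R+Rk2. In bulk liver, fewer cells of a type and less RNA per cell cannot be told apart.

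Of the 10 genes, 7 were higher in I/R+Rk2 by this test, 0 were lower and 3 did not pass. Among all genes tested, 20.3% were called higher and 23.7% lower. The 7 were Cyp7a1, Cyp8b1, Cyp27a1, Baat, Slc10a1, Nr1h4 and Nr0b2, and in each of them every I/R+Rk2 liver lay above every I/R liver in CPM, which held for 27.1% of all genes tested (30.3% had every I/R+Rk2 liver below, 57.4% in all stood apart). The TMM factors were 1.01 to 1.14 in I/R and 0.914 to 0.975 in I/R+Rk2. Relative to total counts alone, the groups overlapped for Cyp7a1, Cyp27a1 and Baat. Cyp7a1 had 63 of 17816979 counts in I/R+Rk2 replicate 3 and 66 of 16809613 in I/R replicate 1. A fold change above 2 was also reached by 4 of the 7 (Cyp7a1, Nr0b2, Cyp8b1 and Slc10a1), against 3.17% of all genes (11.4% passed both limits downward). The median log2 fold change over the 10 genes was 0.62, against -0.01 over all genes. It was 0.34 over the 15 hepatocyte markers, of which 8 were called higher, so part of the shift was shared with them. The call count was 4 without I/R replicate 3 and 4 in limma fits on FPKM. Calls among all genes were 5454 of 12411 in the main fit and 3946 of 12580 without I/R replicate 3. In the limma fits they were 3842 of 9914, 3781 of 9914 and 4133 of 15465.

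**Figure D1:**
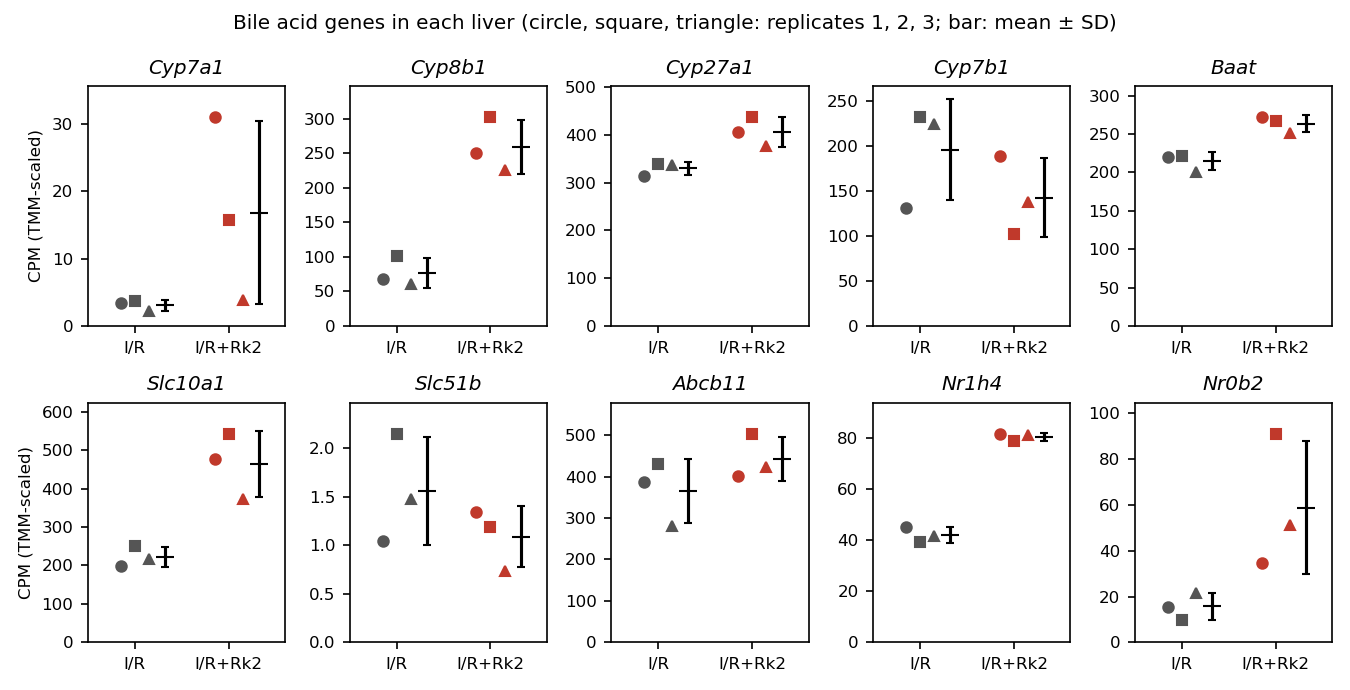
CPM (vertical axis, from 0) of the 10 genes in the 3 I/R livers (grey) and the 3 I/R+Rk2 livers (red), with circles, squares and triangles for replicates 1, 2 and 3 and a bar for mean ± SD. With TMM scaling the groups stand apart in 7 panels, narrowly for Cyp7a1, and overlap for Cyp7b1, Slc51b and Abcb11.

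The promoters of 4 genes are shown first, because 3 of them (Cyp8b1, Slc10a1 and Nr0b2) belong to genes that rose by over 2-fold and the other, that of Abcb11, belongs to a gene that did not pass. RefSeq sequence on build GRCm38.p6 was matched for 7 of the 10 genes, in 8 windows, of which the 4 printed begin at the gene start that GENCODE M21 gives. Each is the 250 bases before the start site, written from 5′ to 3′ on the gene's strand, and capitals mark matches on either strand to AGGTCA, the nuclear receptor half-site, to TCAAGG, the core of the element bound by LRH-1 (Nr5a2), or to CAAAGTCCA, an element bound by HNF4A.
Cyp8b1 (chr9:121916306-121916555, minus strand): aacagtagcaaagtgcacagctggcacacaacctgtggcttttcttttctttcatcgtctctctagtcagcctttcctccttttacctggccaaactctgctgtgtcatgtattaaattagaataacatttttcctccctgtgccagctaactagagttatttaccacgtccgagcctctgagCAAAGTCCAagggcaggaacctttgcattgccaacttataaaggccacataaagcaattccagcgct
Slc10a1 (chr12:80968706-80968955, minus strand): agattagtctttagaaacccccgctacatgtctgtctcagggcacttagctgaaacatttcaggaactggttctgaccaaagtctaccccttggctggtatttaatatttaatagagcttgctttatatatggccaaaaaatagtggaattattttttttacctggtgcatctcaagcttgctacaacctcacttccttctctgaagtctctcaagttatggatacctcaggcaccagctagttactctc
Nr0b2 (chr4:133553126-133553375, plus strand): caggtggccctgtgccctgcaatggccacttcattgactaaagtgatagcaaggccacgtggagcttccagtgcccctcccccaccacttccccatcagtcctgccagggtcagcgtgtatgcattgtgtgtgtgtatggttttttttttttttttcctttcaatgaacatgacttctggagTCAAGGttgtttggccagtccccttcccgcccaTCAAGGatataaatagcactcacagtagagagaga
Abcb11 (chr2:69342617-69342866, minus strand): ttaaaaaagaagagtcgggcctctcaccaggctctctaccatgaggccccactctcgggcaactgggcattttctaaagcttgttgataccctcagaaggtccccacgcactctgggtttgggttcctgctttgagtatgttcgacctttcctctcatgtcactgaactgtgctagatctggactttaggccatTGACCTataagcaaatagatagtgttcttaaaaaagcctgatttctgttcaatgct
The Cyp8b1 window holds CAAAGTCCA from 67 to 59 bases before the start, a match found in 0.384% of 32851 mouse promoter windows of the same length. The Nr0b2 window holds TCAAGG at 68 to 63 and again at 35 to 30 bases before the start, and 12.5% of all windows hold at least 1 match to these letters. The Abcb11 window holds the half-site on the opposite strand at 56 to 51 bases before the start, as do 14.0% of all windows on one strand or the other. The Slc10a1 window printed holds none of the 3 motifs, while a second RefSeq window of Slc10a1 (chr12:80968080-80968329), not printed, holds AGGTCA at 87 to 82 bases before its own start. The half-site is in 4 of the 8 windows matched. A match describes the letters only, and binding was not measured.

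Cyp7a1 (chromosome 4, 6265612 to 6275633 on GRCm38) encodes cholesterol 7α-hydroxylase, the rate-limiting enzyme of the classic route. Its level was 3.44, 3.67 and 2.15 CPM in I/R replicates 1 to 3 and 31.0, 15.7 and 3.87 CPM in I/R+Rk2 replicates 1 to 3. I/R+Rk2 replicate 3 stood barely above the I/R livers, while the other two stood well above them, and within I/R+Rk2 the highest liver was 8.02 times the lowest. The log2 fold change was 2.46 with a standard error (SE) of 0.67, a 5.51-fold difference (adjusted p = 0.0221 by edgeR). In FPKM the groups overlapped, with 0.793 in that liver against 1.43 in I/R replicate 2. The call was lost when any 1 of I/R replicates 1, 2 and 3 was left out (edgeR adjusted p 0.0654, 0.0552 and 0.0764), and the fold fell from 2.46 to 1.69 on the log2 scale without I/R+Rk2 replicate 1 (0.0484). On log2(FPKM + 1) it was 1.17 and did not pass (limma adjusted p = 0.0912).

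Cyp8b1 (chromosome 9, 121914356 to 121916305) encodes sterol 12α-hydroxylase, which directs synthesis toward cholic acid. It was at 68.7, 100.7 and 60.6 CPM in I/R and at 251.0, 302.2 and 225.3 CPM in I/R+Rk2. The lowest I/R+Rk2 liver stood well above the highest I/R liver. The mean rose from 76.6 ± 21.2 to 259.5 ± 39.1 CPM (SD, n = 3), which is a log2 fold of 1.76 with an SE of 0.21 (adjusted p = 0.00112 by edgeR). It passed in each of the 16 alternative analyses, and the log2 fold change lay between 1.61 and 2.01 when 1 liver was left out.

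Cyp27a1 (chromosome 1, 74713574 to 74737892) encodes the mitochondrial sterol 27-hydroxylase. Its values were 313.8, 338.2 and 337.2 CPM in I/R and 404.9, 436.5 and 375.5 CPM in I/R+Rk2. The groups did not overlap with TMM scaling, but the difference was small, 1.23-fold (log2 fold change 0.30, SE 0.09, adjusted p = 0.0330 by edgeR), below the 0.34 median of the hepatocyte markers. It was no longer called in 10 of 16 alternatives, among them without I/R replicates 1, 2 and 3 (0.0721, 0.0639 and 0.0849) and without I/R+Rk2 replicates 1 and 2 (0.0652 and 0.115), and with library size alone it was 0.14 (adjusted p = 0.317 by edgeR).

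Cyp7b1 (chromosome 3, 18071950 to 18243338) encodes the oxysterol 7α-hydroxylase that follows CYP27A1 in the alternative route. It was at 131.2, 231.8 and 224.7 CPM in I/R and at 188.5, 101.8 and 137.4 CPM in I/R+Rk2. The groups overlapped, since I/R replicate 1 lay within the I/R+Rk2 range. The log2 fold change was -0.46 with an SE of 0.28 (adjusted p = 0.217 by edgeR), and it passed in 0 of 16 alternatives, though its sign stayed negative in all 16.

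Ratios of FPKM within a liver do not depend on how libraries are scaled. The ratio of Cyp8b1 to Cyp7b1 was 0.581, 0.482 and 0.299 in I/R and 1.48, 3.30 and 1.82 in I/R+Rk2. Cyp8b1 was therefore the less abundant of the 2 transcripts in each I/R liver and the more abundant in each I/R+Rk2 liver. The ratio of Cyp8b1 to Cyp27a1 was 0.222 ± 0.0572 in I/R and 0.594 ± 0.0467 in I/R+Rk2 (SD, n = 3), again without overlap. For both the exact two-sided permutation p was 0.1, the smallest that 3 against 3 livers allow (0.167 after Benjamini-Hochberg adjustment over the 5 ratios computed, which were chosen after values had been seen). The ratio of Cyp7a1 to Cyp27a1 overlapped between the groups (exact permutation p = 0.3, adjusted 0.3).

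Baat (chromosome 4, 49489422 to 49506557) encodes the enzyme that joins bile acids to taurine or glycine. It was at 220.6, 221.4 and 200.7 CPM in I/R and 271.7, 267.5 and 250.8 CPM in I/R+Rk2. Livers of a group were close to each other, and the groups differed by 1.23-fold (log2 fold change 0.30, SE 0.08, adjusted p = 0.0246 by edgeR). This change, too, was below the 0.34 median of the hepatocyte markers. The call was lost in 7 of 16 alternatives, among them when I/R replicate 3 (0.104) or I/R+Rk2 replicate 1 (0.0563) or 2 (0.0753) was left out, and in FPKM the groups overlapped.

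**Figure D2:**
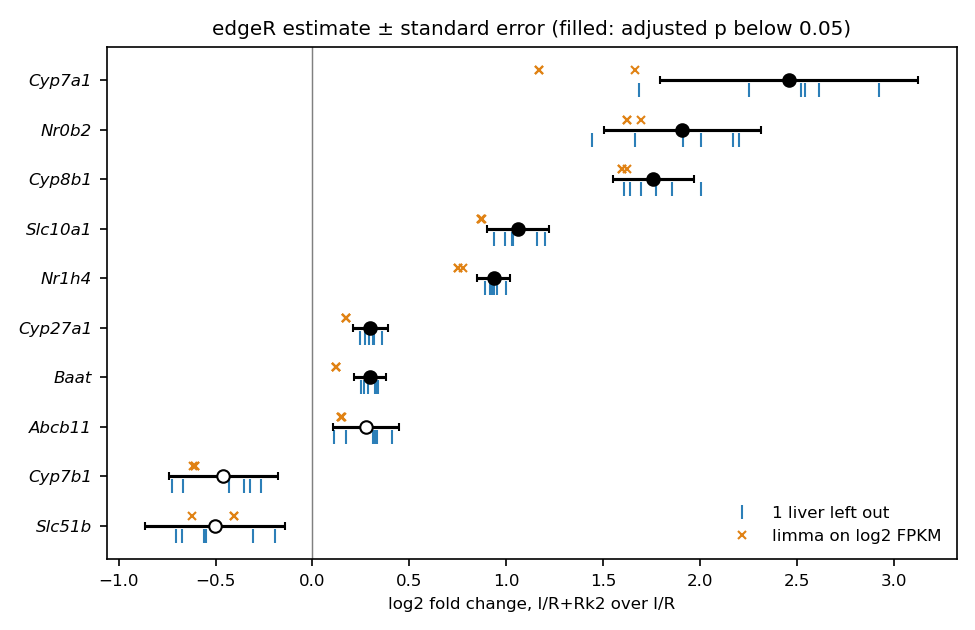
The horizontal axis is the log2 fold change of I/R+Rk2 over I/R for each gene. Black points with bars are the edgeR estimate ± SE from all 6 livers (filled where the adjusted p was below 0.05), blue ticks the fits that left out 1 liver, and orange crosses the limma fits on FPKM. The estimate of Cyp7a1 has the widest bar (SE 0.67), while those of Cyp8b1, Slc10a1 and Nr1h4 move little.

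For transport, Slc10a1 (chromosome 12, 80953183 to 80968705) encodes NTCP, the sodium-dependent carrier that takes conjugated bile acids up from sinusoidal blood. It was at 199.2, 251.7 and 216.3 CPM in I/R and 477.2, 542.3 and 372.1 CPM in I/R+Rk2. Every I/R+Rk2 liver was above every I/R liver. The log2 fold change was 1.06 with an SE of 0.16, a 2.09-fold rise (adjusted p = 0.00249 by edgeR), and it was called in each of the 16 alternatives, between 0.87 and 1.20.

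Abcb11 (chromosome 2, 69238282 to 69342616) encodes BSEP, the canalicular pump that exports bile salts into bile. It was at 386.4, 430.0 and 280.8 CPM in I/R and 401.0, 503.1 and 423.5 CPM in I/R+Rk2. The groups overlapped, and the log2 fold change of 0.28 (SE 0.17) did not pass (adjusted p = 0.226 by edgeR), nor did it in any of the 16 alternatives. Exons of Gm13613 and Gm13614 overlap its exons on the opposite strand, a limit on this level and on the ratio that follows if strand was not used. The FPKM ratio of Slc10a1 to Abcb11 was 1.53, 1.73 and 2.22 in I/R and 3.39, 3.04 and 2.57 in I/R+Rk2, so the uptake carrier transcript stood higher relative to the export pump in every I/R+Rk2 liver (exact permutation p = 0.1, the smallest possible, adjusted 0.167).

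Slc51b (chromosome 9, 65412714 to 65422955) encodes OSTβ, a subunit of the heterodimeric exporter that returns bile acids to blood. It had few reads, with 20, 55 and 37 counts in I/R and 32, 40 and 12 in I/R+Rk2. The groups overlapped (1.55 ± 0.556 against 1.09 ± 0.315 CPM, SD, n = 3), the log2 fold change was -0.50 with an SE of 0.36 (adjusted p = 0.294 by edgeR), and the coefficient of variation between livers was 35.8% in I/R and 28.9% in I/R+Rk2. An exon of Rasl12 lies on the opposite strand within its exons, and reads of the 2 genes cannot be told apart if strand was not used. Its partner Slc51a was not in the count table and is listed at 0 FPKM in all 6 livers.

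Both regulators rose. Nr1h4 (chromosome 10, 89454234 to 89533585), the gene of FXR, was at 45.2, 39.2 and 41.6 CPM in I/R and 81.4, 78.6 and 81.0 CPM in I/R+Rk2. The I/R+Rk2 livers lay within a coefficient of variation of 1.93%, the tightest of the 10 genes, and the log2 fold change was 0.94 with an SE of 0.08 (adjusted p = 0.000501 by edgeR). Nr0b2 (chromosome 4, 133553376 to 133556536), the gene of SHP, was at 15.6, 9.99 and 21.5 CPM in I/R and 34.5, 91.1 and 51.1 CPM in I/R+Rk2. Its livers were widely spread, above all in I/R+Rk2, but did not overlap between groups. The log2 fold change was 1.91 with an SE of 0.40 (adjusted p = 0.00892 by edgeR), and it was 1.44 without I/R+Rk2 replicate 2, the highest liver, where it still passed (0.0214). Nr1h4 and Nr0b2 were called in each of the 16 alternatives. The FPKM ratio of Nr0b2 to Nr1h4 overlapped between the groups (0.659 ± 0.237 against 1.31 ± 0.673, SD, n = 3, exact permutation p = 0.2, adjusted 0.25).

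Among the I/R+Rk2 livers, the order differed from gene to gene. Replicate 1 was the highest for Cyp7a1, Cyp7b1, Baat, Slc51b and Nr1h4 and the lowest for Abcb11 and Nr0b2. Replicate 2 was the highest for Cyp8b1, Cyp27a1, Slc10a1, Abcb11 and Nr0b2 and the lowest for Cyp7b1 and Nr1h4. With 3 livers these orders were not tested.

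Per transcript length, Cyp27a1 was the most abundant of the 10 in I/R (175.4 ± 5.30 FPKM, SD, n = 3), followed by Baat (150.4 ± 15.8) and Slc10a1 (134.0 ± 12.3), with the ranges of Baat and Slc10a1 overlapping. Cyp7b1 (88.7 ± 20.8) and Abcb11 (75.4 ± 16.7) overlapped next, and below them Cyp8b1 (38.9 ± 10.1), Nr1h4 (20.9 ± 2.85), Nr0b2 (13.7 ± 4.89), Slc51b (2.14 ± 0.675) and Cyp7a1 (0.933 ± 0.476) each stood apart from the next. Cyp7a1, which encodes the rate-limiting enzyme, was thus the lowest of the 10 transcripts in I/R. In I/R+Rk2 the order began with Slc10a1 (248.3 ± 47.6 FPKM), whose range overlapped that of Cyp27a1 (198.3 ± 16.8). Baat (163.2 ± 11.3) and Cyp8b1 (118.3 ± 18.9) followed, each apart from its neighbours. Cyp8b1 moved from the sixth place to the fourth, above Abcb11 (82.7 ± 10.7), Cyp7b1 (58.7 ± 19.3) and Nr0b2 (46.0 ± 22.6), which overlapped in turn, while Nr0b2 overlapped Nr1h4 (35.6 ± 1.41) and Cyp7a1 (4.11 ± 3.34) overlapped Slc51b (1.36 ± 0.431) at the bottom. Between the groups, FPKM ranges overlapped for 6 of the 10 genes and stood apart for Cyp8b1, Slc10a1, Nr1h4 and Nr0b2. The share of all genes whose FPKM ranges stood apart was not computed, so this count has no background.

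**Figure D3:**
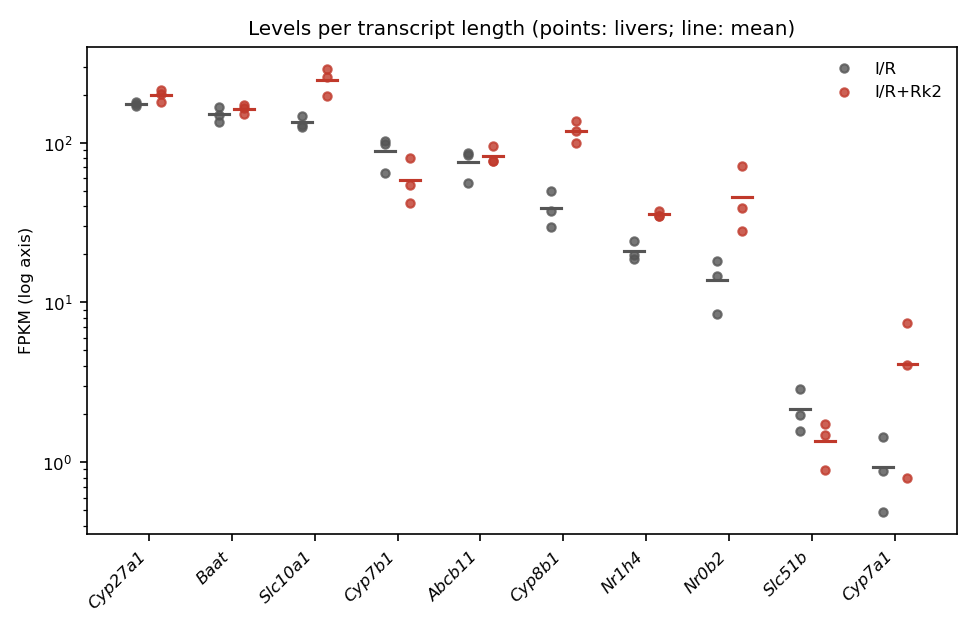
FPKM on a log axis for the 10 genes, ordered by their mean in I/R, with a point for each of 3 livers a group and a line at the mean. Cyp27a1 leads in I/R at 175.4, Slc10a1 in I/R+Rk2 at 248.3, and Cyp7a1 spreads the most on the log axis in I/R+Rk2, from 0.793 to 7.48.

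Of 6963 other tested genes with a mean of at least 10 CPM, the 3 whose pattern over the 6 livers was closest to that of Cyp7a1 were Angptl8, Mid1ip1 and Mvd, by Euclidean distances of 1.38, 1.41 and 1.42 between centred log2(CPM + 1) values. Angptl8, a secreted regulator of lipoprotein lipase, had 115.0, 46.6 and 26.7 CPM in I/R+Rk2 replicates 1 to 3 against 12.5, 13.3 and 25.0 CPM in I/R. Mid1ip1 is known to promote the polymerisation of acetyl-CoA carboxylase, and Mvd encodes an enzyme of cholesterol synthesis. The call of Angptl8 (adjusted p = 0.0270 by edgeR) was lost in 4 of 16 alternatives, among them when I/R replicate 1 (0.0914) or 2 (0.0836) was left out. In all 3, as in Cyp7a1, I/R+Rk2 replicate 1 was the highest liver and replicate 3 the lowest of its group. The 3 genes were picked for their likeness over these same livers, so neither this shared order nor their difference between the groups is a separate result.

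The other genes of the pathway were read from 5 lists holding 45 genes, of which 42 were tested. Of these, 18 were higher in I/R+Rk2, 4 were lower and 20 did not pass, with a median log2 fold change of 0.34. Among all genes tested, 20.3% were called higher and 23.7% lower, and the median of the hepatocyte markers was also 0.34. The 22 calls became 14 without I/R+Rk2 replicate 2, where calls among all genes went from 5454 of 12411 to 3933 of 12628.

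Of 15 other enzymes of synthesis and conjugation, 10 rose, 1 fell and 4 did not pass (median 0.40). Of all genes, 20.3% were called higher and 23.7% lower. Hsd3b7, which encodes the 3β-hydroxysteroid dehydrogenase that acts after 7α-hydroxylation in both routes, rose from 104.4 ± 17.8 to 254.3 ± 71.3 CPM (1.28 on the log2 scale, adjusted p = 0.00469 by edgeR). It shares exon positions with Gm49388 on the same strand. Akr1d1, the Δ4-3-ketosteroid 5β-reductase, rose by a log2 fold change of 1.05 (adjusted p = 0.00431 by edgeR) and Akr1c6, an aldo-keto reductase, by 0.64 (0.00360). Amacr, the racemase that prepares the side chain for peroxisomal shortening, rose by 0.93 (adjusted p = 0.00123 by edgeR). Slc27a5, the bile acid CoA ligase that works before BAAT, rose by 0.40 (adjusted p = 0.0280 by edgeR), a call lost in 8 of 16 alternatives, among them when I/R replicate 1 (0.0779) or 3 (0.0895), or I/R+Rk2 replicate 2 (0.0866) or 3 (0.0792), was left out. Cyp2c70, which makes muricholic acids in mice, had a log2 fold change of 0.28 and did not pass (adjusted p = 0.198 by edgeR). The member that fell was Ch25h, cholesterol 25-hydroxylase, which also occurs in macrophages and makes an oxysterol rather than a step of the main routes. It had 273, 523 and 382 counts in I/R and 92, 86 and 12 in I/R+Rk2 (-2.75 on the log2 scale, adjusted p = 0.00326 by edgeR). Gm26902 lies antisense to it.

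Beside Ch25h stand the markers of myeloid cells, whose part in its fall was not tested. All 10 monocyte markers were lower, against 23.7% of all genes, with a median log2 fold change of -4.10. Their summed level was 1777 to 2115 CPM in I/R and 1172 to 1234 CPM in I/R+Rk2, most of it Fn1, fibronectin, which hepatocytes also make, and the other 9 summed to 365.4 to 438.8 CPM in I/R and 52.9 to 75.2 CPM in I/R+Rk2. Of 10 neutrophil markers, 6 of the 8 tested were lower (467.4 to 578.5 against 87.4 to 209.9 CPM), with Camp absent from the count table. Of 10 Kupffer cell markers, 1 was called lower (92.1 to 143.8 against 75.8 to 92.7 CPM). All 10 had a log2 fold change below 0, as did 6257 of 12411 genes tested, and their median was -0.46.

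Against 20.3% of all genes called higher, 4 of 5 other genes of uptake rose and 1 did not pass (median 0.56). These were Slco1a1 (0.65, adjusted p = 0.00614 by edgeR), Slco1b2 (0.56, 0.0295) and Slco2b1 (0.58, 0.00168), which encode sodium-independent organic anion carriers, and Ephx1 (0.44, 0.0198), microsomal epoxide hydrolase. The calls of Slco1b2 and Ephx1 were lost with library size alone and in the 3 limma fits on FPKM, and that of Slco2b1 in 2 of these 3 (limma adjusted p = 0.0511 and 0.0640, with log2 fold changes of 0.37 and 0.36). That of Slco1b2 was also lost when I/R replicate 1 (0.0913) or 2 (0.0844), or I/R+Rk2 replicate 2 (0.0922) or 3 (0.0691), was left out, and that of Ephx1 when I/R replicate 2 (0.0517) or I/R+Rk2 replicate 1 (0.0551) or 2 (0.0625) was.

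Of 8 other canalicular genes, 2 rose, 1 fell and 5 did not pass (median 0.34), so that 3 of 8 were called, against 43.9% of all genes. Abcc2, which encodes the conjugate pump MRP2, had a log2 fold change of -0.36 (adjusted p = 0.201 by edgeR) and Abcb4, the phospholipid floppase, one of 0.33 (0.120, and 0.037 without I/R+Rk2 replicate 1). Atp8b1, an aminophospholipid flippase, rose by 0.35 (adjusted p = 0.0134 by edgeR), a call lost with library size alone (0.195) and in the 3 limma fits on FPKM (0.329 to 0.353). Abcg2, the breast cancer resistance protein, was called higher at 0.39 (adjusted p = 0.0458 by edgeR) but was lower on log2(FPKM + 1), at -0.19 (limma adjusted p = 0.242), so its direction depended on the unit, and the call was lost when I/R replicate 1 (0.107) or 3 (0.0981), or I/R+Rk2 replicate 2 (0.133) or 3 (0.109), was left out. Abcb1a, a P-glycoprotein gene, fell from 10.5 ± 1.17 to 3.82 ± 1.36 CPM (SD, n = 3), which is a log2 fold of -1.47 (adjusted p = 0.00508 by edgeR).

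Of 3 other sinusoidal exporters, 2 were tested. Abcc4, the gene of MRP4, fell by 1.02 on the log2 scale, from 5.74 ± 0.802 to 2.80 ± 0.818 CPM (adjusted p = 0.0130 by edgeR). Abcc3, the gene of MRP3, was at 153.3 ± 3.95 and 192.6 ± 53.6 CPM and did not pass (adjusted p = 0.206 by edgeR, and 0.00834 without I/R+Rk2 replicate 1).

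**Figure D4:**
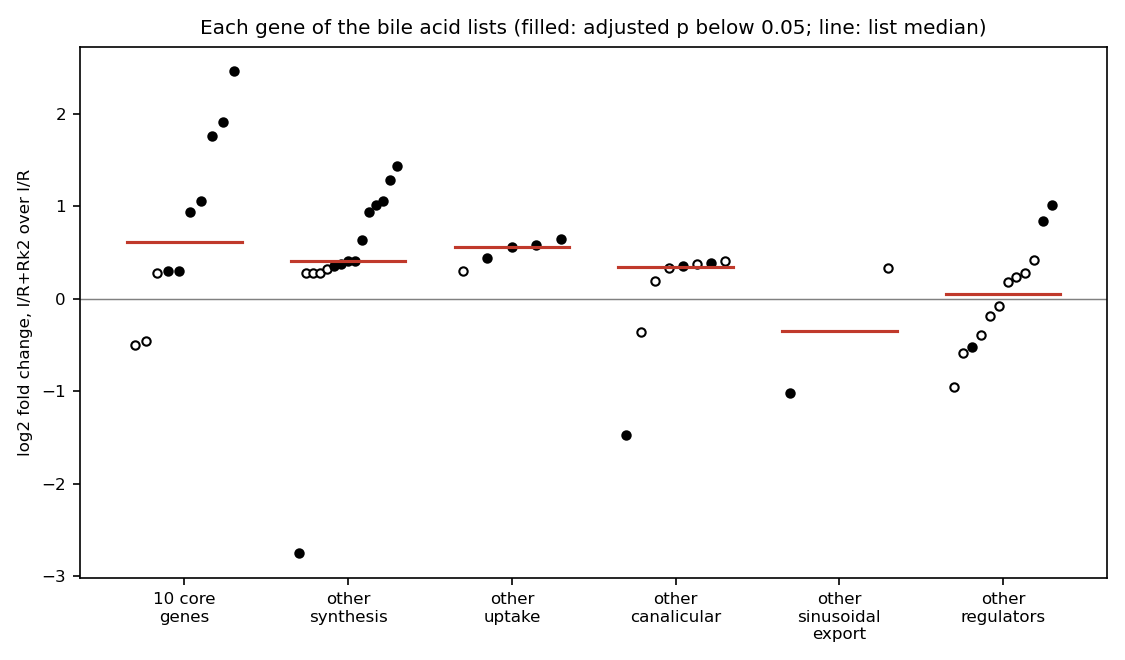
The vertical axis is the edgeR log2 fold change of I/R+Rk2 over I/R, with a point for each tested gene of the 10 core genes and of 5 other bile acid lists, filled where the adjusted p was below 0.05, and a red line at each list's median. Synthesis and uptake genes lie mostly above 0 (medians 0.40 and 0.56), with Ch25h the lowest point at -2.75.

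Of 14 other regulators, 12 were tested, 2 rose, 1 fell and 9 did not pass (median 0.05). Thus 3 of 12 were called, against 43.9% of all genes. Nr1h3, the gene of the oxysterol receptor LXRα, rose by a log2 fold change of 0.84 (adjusted p = 0.00377 by edgeR), and Nr1i3, the gene of the xenobiotic receptor CAR, by 1.02 (0.00505). Both share exon positions with a neighbour (Gm13783 and, in antisense, Tomm40l). Hnf4a, the hepatocyte factor whose element was searched for above, fell from 660.4 ± 20.6 to 459.9 ± 44.2 CPM (-0.52 on the log2 scale, adjusted p = 0.00583 by edgeR). Fgfr4 (0.23, adjusted p = 0.192 by edgeR) and its co-receptor Klb (0.42, 0.0573), which receive the intestinal signal FGF15, and Nr5a2, the gene of LRH-1 (-0.08, 0.766), did not pass. Klb was called in 4 of 16 alternatives, with relative log expression scaling (0.0489), with upper-quartile scaling (0.0366), with DESeq2 (0.0442) and without I/R+Rk2 replicate 3 (0.0399). Fgf15 itself had 1 count in each I/R liver and 0 in each I/R+Rk2 liver and was not tested.

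Slc10a2, chosen after its values were seen, encodes ASBT, the apical carrier that takes up bile acids in cholangiocytes and ileum, and stood among the cholangiocyte markers. It fell from 27.9 ± 4.24 to 10.4 ± 3.72 CPM (SD, n = 3), which is a log2 fold of -1.44 (adjusted p = 0.00591 by edgeR), opposite in sign to its hepatocyte relative Slc10a1. Of the 10 other cholangiocyte markers, 9 were tested, 1 was higher and 4 lower, against 20.3% and 23.7% of all genes. Their summed levels were 175.5 to 240.9 CPM in I/R and 98.5 to 133.4 CPM in I/R+Rk2. Most of that sum was Spp1, osteopontin, and without it the sums overlapped, at 43.1 to 51.6 CPM in I/R and 43.5 to 50.6 CPM in I/R+Rk2. Krt19, a cholangiocyte keratin, did not pass (0.08 on the log2 scale, adjusted p = 0.809 by edgeR, and below 0 in 6 of 16 alternatives), and Sctr, the secretin receptor gene, was absent from the count table. Their part in the fall of Slc10a2 was not tested.

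Cyp7a1 is also known as a target of the circadian clock. Of 14 clock genes, 4 were higher, 5 lower and 5 did not pass, while 20.3% of all genes were called higher and 23.7% lower. Arntl rose by a log2 fold change of 1.81 (adjusted p = 0.00103 by edgeR) and Npas2 by 2.63 (0.00466), while Tef fell by 1.28 on the log2 scale (0.00114) and Per1 fell by 0.56 (0.00402). Dbp, named after its values were seen as a known activator of Cyp7a1, fell from 8.74 ± 2.18 to 2.79 ± 1.24 CPM (adjusted p = 0.00963 by edgeR). Hlf, of the same list and also named after its values were seen, was called higher (log2 fold change 0.85, adjusted p = 0.0100 by edgeR). That call was lost in the 3 limma fits on FPKM. The part of the clock genes in the difference of Cyp7a1 was not tested.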

How the data were processed

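RNA-seq libraries were made from 250 ng of total RNA per liver with an MGI kit, from 3 I/R and 3 I/R+Rk2 livers, grouped by their titles. According to the study's methods and the submitters' processing notes, the authors aligned reads to mm10 with HISAT2 (2.2.1) and used StringTie (1.3.3), and they deposited whole-number counts per gene and FPKM per gene. Neither the annotation nor the strand setting was given in the sources used here. Columns were assigned to livers by their names.

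From the counts, genes were kept by filterByExpr, and the contrast of I/R+Rk2 against I/R was tested with the edgeR (4.0.16, R 4.3.3) quasi-likelihood test with TMM scaling, no covariates and Benjamini-Hochberg adjustment over the 12411 genes kept. A positive log2 fold change means higher in I/R+Rk2, and the SE is the absolute log2 fold change divided by the square root of F. DESeq2 (1.42.0), limma (3.58.1) on log2 FPKM, other scalings and filters, a replicate block and fits without each liver were alternatives. The scripts were tested on simulated data. The 10 genes and the lists were chosen with earlier results of these data known. The text names all 10 genes, of each bile acid list and of the clock list the at most 4 tested genes with the smallest p, the 3 genes most like Cyp7a1, and, whatever their values, Hsd3b7, Akr1d1, Slc27a5, Cyp2c70, Slco1b2, Abcc2, Abcb4, Slc51a, Abcc3, Abcc4, Fgfr4, Klb, Nr5a2 and Hnf4a. Each library was counted as 1 replicate by its title. Libraries of a group differed by a chi-square per degree of freedom of 31.4 to 74.8, so none was a copy of another, which does not show independent livers. The labels do not say how far the livers of a group were independent beyond being separate samples, so p-values measure the spread between them. Total counts put 3 counts at 0.0888 to 0.184 CPM, which covers counting error only.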

Additional observations from a re-analysis of the deposited data

How the results depend on the processing

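Over 16 alternatives, 160 values of the 10 genes were recomputed. In 137 the direction and the call were kept, in 23 the call was lost and in 0 the direction turned, the losses being those of Cyp7a1 (6), Cyp27a1 (10) and Baat (7). On log2 FPKM with limma the 7 calls became 4 in each of 3 fits, the 4 past a 2-fold change became 2, and the 22 calls among the other bile acid genes became 14 with a pseudocount of 1, 13 with a pseudocount of 0.1 and 16 with a pseudocount of 1 and no filter. In these fits 3842 of 9914, 3781 of 9914 and 4133 of 15465 genes were called, against 5454 of 12411 in the main fit. The median log2 fold change of all genes was -0.12, -0.15 and -0.05 in these fits. The cause was not tested. Leaving out 1 liver gave 4 to 7 calls among the 10 genes, 3 to 4 past a 2-fold change and 14 to 24 among the other bile acid genes. Calls among all genes then ran from 3933 of 12628 to 5459 of 12653. Abcg2 was lower in each FPKM fit (-0.19 with a pseudocount of 1, with or without the filter, and -0.19 with 0.1). Krt19, not called either way, was at -0.0592 when scaled by library size only, at -0.0624 on FPKM with a pseudocount of 1 (filtered or not), at -0.0857 with one of 0.1, and between -0.17 and 0.28 when 1 liver was omitted. Nr5a2, which was not called, ran from -0.21 to 0.12 over the fits that omitted 1 liver, and was above 0 where I/R+Rk2 replicate 1 was omitted. A fit with the replicate block called 7 of the 10 genes, 24 of the other bile acid genes and 4713 of all genes, and of the genes named and recomputed it changed the call of Angptl8 alone (edgeR adjusted p = 0.0835). Same-numbered livers did not deviate together (correlations across genes of -0.0313, 0.0477 and -0.0243), and only replicate 2 of I/R correlated best with its own number. With 3 livers a group, the difference of Abcb11 (0.28, SE 0.17) could not be told from the spread between its own livers. The 12 to 55 counts of Slc51b limit its precision.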
